A study of Homo sapiens with 30 samples.

Results

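Charcoal burnt in a hookah without any shisha was compared with control at 24 h in BEAS-2B cells, an established line of human bronchial epithelial cells. The 2 groups are all the libraries that the labels give to these conditions at 24 h, which makes 6 of the 30 libraries of the series. Charcoal alone at 24 h (3 wells) was the exposed group, and every difference is charcoal alone minus control at 24 h (3 wells) unless another pair is named. Charcoal alone and control at 2 h (3 wells each), herbal shisha without tobacco on charcoal at 24 h, tobacco shisha on charcoal at 24 h and tobacco shisha on an electric heater at 24 h (3 wells each) serve for comparison. All cells carry no stated genetic change, and exposures lasted 30 min on a rocker. The dose of each exposure was set at the highest level free of LDH release at 24 h, so the exposures were matched on that measure and not on smoke mass. The labels say neither what control wells received nor whether wells of a group were separate cultures. The p-values therefore measure the spread between wells, which may be technical.

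RNA was sequenced and the deposited values are FPKM, fragments scaled by transcript length and by mapped reads. The level sums ran from 200565 to 204050 FPKM in charcoal wells and from 204237 to 205624 FPKM in control wells, and the number of reads behind a value is unknown. Wells of charcoal alone correlated with each other at 0.9904 to 0.991, control wells at 0.9896 to 0.9919, and wells of different groups at 0.9854 to 0.9885. KRT8 and KRT18, keratins of simple epithelium, averaged 693.4 and 428.0 FPKM after charcoal alone and 560.4 and 351.1 FPKM in control. The basal cell keratins KRT5 and KRT14 were listed at 0 in all 6 wells, and the junction genes CDH1 and EPCAM stayed below 1 FPKM in each. The label of a bronchial epithelial line thus rests on KRT8, KRT18 and KRT19 in these values, since 3 of the 7 epithelial markers in the files reached a mean of 1 FPKM.

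Several of the genes below belong to regulated programmes. ATF4 is a transcription factor whose protein is made more efficiently when amino acids are short or the endoplasmic reticulum is stressed, and it switches on genes for amino acid synthesis, amino acid uptake and charging of transfer RNA. HIF-1 is a factor that is stable when oxygen is low and raises glycolytic enzymes and brakes on mitochondria. NRF2 is released by oxidants and electrophiles and raises enzymes of quinone reduction, glutathione and NADPH supply, and retinoic acid is a vitamin A derivative that guides differentiation of airway epithelium.

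At 24 h after charcoal alone, NRF2-linked genes, the aldo-keto reductases foremost, rose in 11 of 30 tested cases, and so did 4 of 11 genes of retinoic acid handling and response and 4 of 10 fatty acid synthesis genes. Among the genes that fell were those for asparagine and serine synthesis, 11 of 17 aminoacyl-tRNA synthetases and 12 of 29 glycolytic and hypoxia-linked genes. Of 8531 genes tested, 842 (9.87%) passed an adjusted p below 0.05 in limma's two-sided test with Benjamini-Hochberg adjustment, 516 of them (6.05%) higher and 326 (3.82%) lower. These genes are called below, and "rose" and "fell" refer to them alone. Most changes were small, with a median absolute log2 change of 0.298, and 693 of the 842 changed by less than 0.5 on the log2(FPKM + 1) scale. Only 9 genes rose and 7 fell by at least 2-fold on that scale, and 45 did so with a pseudocount of 0.1. All 3 charcoal wells lay beyond all 3 control wells in 832 of the called genes, and in 35.2% of all tested genes. Median-of-ratios scaling changed the split to 416 higher and 434 lower. Leaving out charcoal well 1, 2 or 3 gave 602, 523 or 511 called genes, and leaving out control well 1, 2 or 3 gave 541, 556 or 555.

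**Figure D1:**
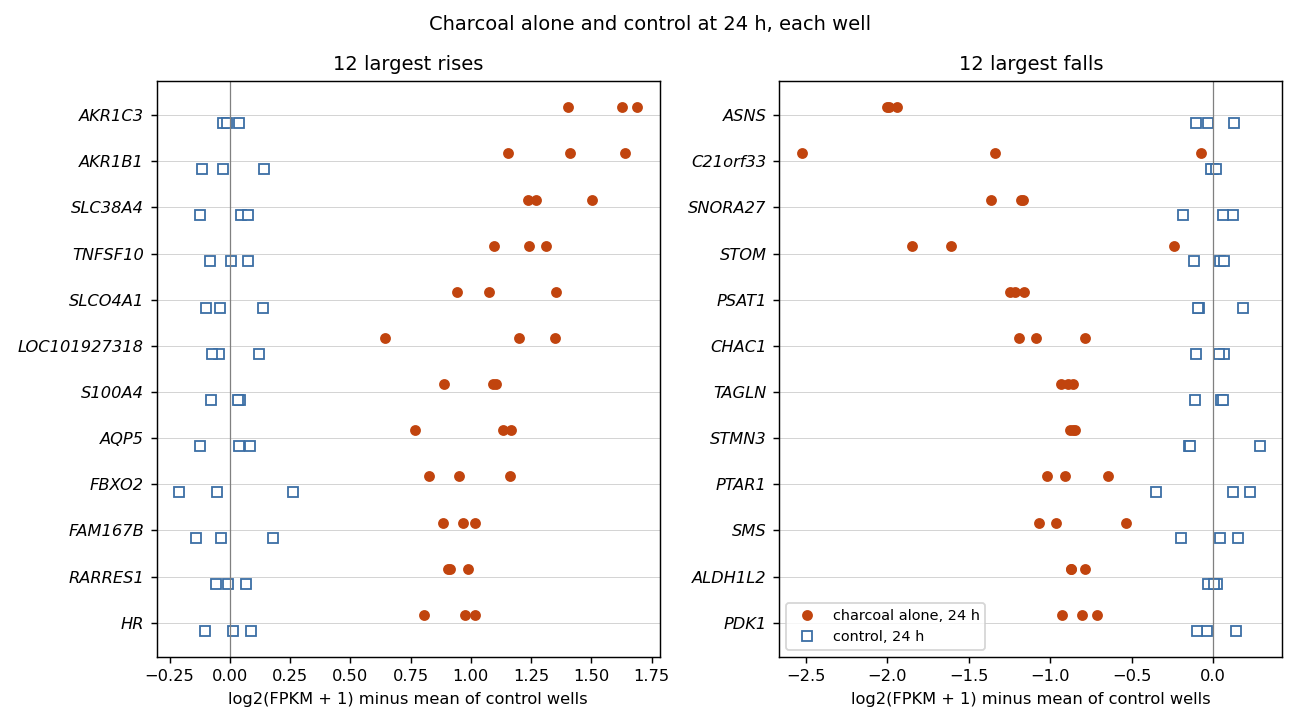
Levels of the 12 largest rises (left) and 12 largest falls (right) in each well at 24 h, as log2(FPKM + 1) minus the mean of the control wells; filled circles are charcoal alone and open squares control. The ASNS wells of charcoal alone lie close together near -1.98, while those of C21orf33 and STOM are spread out, with 1 well of each close to control.

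The largest fall was that of ASNS, and other genes of amino acid supply fell too. ASNS makes asparagine from aspartate and glutamine and is a classic ATF4 target. Its level was 3.67, 3.69 and 3.87 FPKM in charcoal wells, against 17.3, 16.4 and 19.5 FPKM in control wells (log2 change -1.98, SE 0.24, adjusted p = 1.24e-05). The groups were far apart and the charcoal wells nearly equal. PSAT1, the aminotransferase of serine synthesis, had 29.6, 27.8 and 28.4 FPKM after charcoal alone and 63.4, 63.1 and 76.5 FPKM in control (log2 change -1.21, SE 0.14, adjusted p = 4.43e-06). CHAC1, which breaks down glutathione, had 1.90, 1.35 and 1.19 FPKM after charcoal alone and 4.24, 4.13 and 3.65 FPKM in control (log2 change -1.02, SE 0.18, adjusted p = 0.000817). No charcoal well of either gene reached the lowest control well.

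Of 27 tested genes of the ATF4 list, 11 fell, 3 rose and 13 did not pass, and the median log2 change was -0.23 against 0.022 over all tested genes. SHMT2, a mitochondrial enzyme that takes a carbon from serine, fell to 82.5, 85.5 and 86.3 FPKM in charcoal wells, against 121.7, 120.3 and 129.7 FPKM in control wells (log2 change -0.54). PHGDH, the first enzyme of serine synthesis, had 77.2, 80.4 and 75.5 FPKM after charcoal alone, against 108.1, 113.4 and 111.6 FPKM in control (log2 change -0.51). Among the members named after their values were seen, the pseudokinase gene TRIB3 fell by 0.55 and the cystine transporter gene SLC7A11 by 0.42. The members did not all move together. SLC38A2, a neutral amino acid transporter, rose to 206.2, 207.9 and 239.8 FPKM in charcoal wells, against 138.8, 134.4 and 126.6 FPKM in control wells (log2 change 0.70, SE 0.12, adjusted p = 0.000651). ATF3, a stress transcription factor of the same list, had 3.47, 2.53 and 3.88 FPKM after charcoal alone and 5.28, 5.51 and 4.25 FPKM in control and did not pass (adjusted p = 0.285). Over 6 fits that each left out 1 well, 9 or 10 members fell and 1 to 3 rose.

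Aminoacyl-tRNA synthetases load amino acids onto transfer RNA for translation. Of 17 tested synthetases of the cytosol, 11 fell, 1 rose and 5 did not pass, with a median log2 change of -0.25. YARS, which loads tyrosine, had 21.4, 21.2 and 21.3 FPKM in charcoal wells and 34.2, 33.9 and 37.3 FPKM in control wells (log2 change -0.70, SE 0.09, adjusted p = 1.76e-05). GARS, which loads glycine, had 31.6, 31.7 and 31.8 FPKM after charcoal alone and 45.4, 46.3 and 51.1 FPKM in control (log2 change -0.57, SE 0.09, adjusted p = 0.000309). The wells of charcoal alone differed from each other by far less than from control. WARS fell by 0.43, MARS by 0.35, AARS by 0.31 and SARS by 0.25 on the log2 scale. The exception was HARS, the histidine enzyme, which was named after its value was seen and rose to 57.1, 57.9 and 59.6 FPKM, against 51.7, 50.9 and 53.2 FPKM in control (log2 change 0.16, adjusted p = 0.0224). Its call ended without charcoal well 2 or 3 or control well 1 or 2 (adjusted p = 0.0574, 0.0991, 0.0666 and 0.0867).

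Promoter sequences are shown for the fallen members of these 2 lists that hold an ATF4-like element, because these genes carry the pattern described above. The 250 bases before the RefSeq start of each gene (GRCh38.p14) were searched on both strands for TGATGNAA, which reads TTNCATCA on the other strand. A match was present in 2 of 9 fallen ATF4 list members with a sequence in the table, in 2 of 9 fallen synthetases and in 3.14% of all 35116 promoters. The windows lie at chr7:97872424-97872521 on the minus strand for ASNS, chr15:40953221-40953314 on the plus strand for CHAC1, chr16:70289641-70289738 on the minus strand for AARS and chr9:92293698-92293755 on the minus strand for IARS. Each is written 5′ to 3′ in the gene's direction, with the match in capitals. The fall of IARS lost its call without charcoal well 2 (adjusted p = 0.0557).
ASNS: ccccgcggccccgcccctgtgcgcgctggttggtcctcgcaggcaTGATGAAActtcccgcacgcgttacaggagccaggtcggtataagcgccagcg
CHAC1: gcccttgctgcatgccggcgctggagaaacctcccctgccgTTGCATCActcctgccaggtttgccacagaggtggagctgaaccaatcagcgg
AARS: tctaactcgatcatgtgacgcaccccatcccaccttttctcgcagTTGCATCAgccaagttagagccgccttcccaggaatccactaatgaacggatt
IARS: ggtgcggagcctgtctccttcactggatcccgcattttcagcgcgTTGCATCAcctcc

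The matches in CHAC1, AARS and IARS share the same 8 letters, read on the strand opposite to the gene, while that of ASNS reads forward and differs within the element. PSAT1 and PHGDH held no match in the searched window. ATF3, a member that did not pass, held 1 as well, so 1 of 12 members not called had the element.

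Hypoxia-linked and glycolytic genes changed in 1 direction where they were called. Of 29 tested members 12 fell, none rose at an adjusted p below 0.05 and 17 did not pass, and the median log2 change was -0.26. PDK1 is a kinase that inhibits pyruvate dehydrogenase. It had 4.38, 4.05 and 3.63 FPKM in charcoal wells, against 8.71, 7.59 and 7.22 FPKM in control wells (log2 change -0.82, SE 0.09, adjusted p = 4.10e-06). BNIP3, a mitophagy receptor, had 108.1, 96.4 and 93.0 FPKM after charcoal alone and 164.0, 165.7 and 157.7 FPKM in control (log2 change -0.71, SE 0.09, adjusted p = 1.67e-05). HK2, a hexokinase, had 6.71, 5.38 and 6.12 FPKM after charcoal alone and 10.5, 10.7 and 9.21 FPKM in control (log2 change -0.66, SE 0.10, adjusted p = 0.000177). Charcoal wells lay below control wells in each of these genes. LOX, a collagen crosslinking oxidase, fell by 0.55, the glycolytic enzyme genes PGK1 by 0.46 and ALDOA by 0.35. VEGFA, the vascular growth factor and the best known HIF-1 target, had 5.99, 5.01 and 5.30 FPKM in charcoal wells and 6.92, 7.52 and 6.47 FPKM in control wells and did not pass (log2 change -0.31, adjusted p = 0.114). Leaving out 1 well at a time gave 10 or 11 falls and no rise.

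The core of the hypoxia response element, ACGTG, was searched on both strands, where the opposite one reads CACGT, and it is shown in 4 of the fallen genes picked among those with a match. It stood in the 250 bases before the start in 6 of 9 fallen members with a sequence in the table, in 5 of 15 members not called and in 18.5% of all promoters. The windows (GRCh38.p14) are chr10:131982007-131982101 on the minus strand for BNIP3, chrX:78104001-78104095 on the plus strand for PGK1, chr2:74834034-74834126 on the plus strand for HK2 and chr3:122384053-122384147 on the plus strand for FAM162A. Capitals mark 1 match in each.
BNIP3: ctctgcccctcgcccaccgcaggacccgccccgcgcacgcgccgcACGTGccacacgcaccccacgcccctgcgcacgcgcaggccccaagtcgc
PGK1: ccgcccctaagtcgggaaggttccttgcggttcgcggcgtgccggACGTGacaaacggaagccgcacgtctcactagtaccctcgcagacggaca
HK2: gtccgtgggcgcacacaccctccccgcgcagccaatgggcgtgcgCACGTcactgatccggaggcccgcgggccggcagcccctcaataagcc
FAM162A: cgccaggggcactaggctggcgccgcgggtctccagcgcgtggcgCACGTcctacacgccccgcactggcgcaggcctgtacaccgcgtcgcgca

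In BNIP3 the match is a palindrome with its neighbouring base, so both strands read it, and PGK1 holds the other-strand form again within the same window. These short letters are common, and a match is a description of the sequence only.

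**Figure D2:**
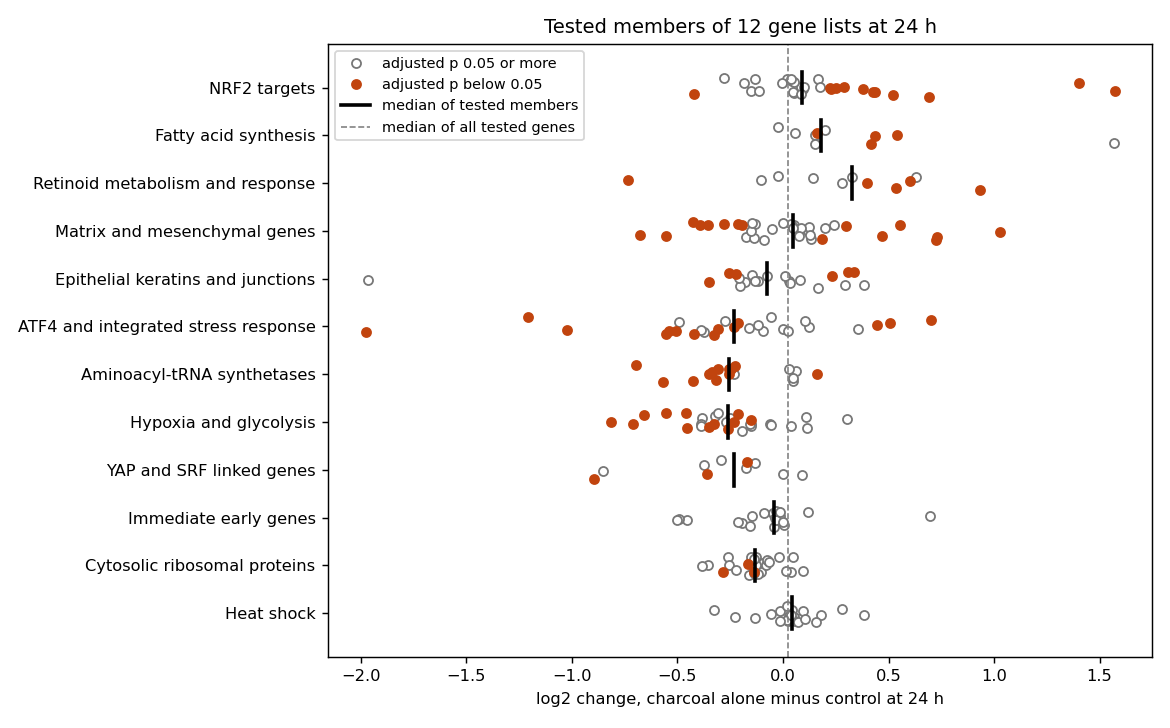
The log2 change at 24 h (charcoal alone minus control) of every tested member of 12 gene lists, with filled points for an adjusted p below 0.05, black bars for list medians and a dashed line for the median of all tested genes. The ATF4, synthetase and hypoxia lists lie to the left, with medians of -0.23, -0.25 and -0.26, and the retinoid list to the right, with a median of 0.33.

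NRF2-linked genes rose in part. Of 30 tested members 11 rose, 1 fell and 18 did not pass, with a median log2 change of 0.09, and the numbers risen and fallen were the same in every alternative. AKR1C3 (chr10:5048781-5107686), which reduces ketosteroids and prostaglandins, had 6.73, 8.42 and 8.01 FPKM in charcoal wells and 1.87, 1.90 and 2.00 FPKM in control wells (log2 change 1.57, SE 0.14, adjusted p = 2.34e-07). AKR1B1 (chr7:134442350-134459239) encodes aldose reductase, which turns glucose into sorbitol. Its level was 518.7, 619.3 and 726.4 FPKM after charcoal alone, against 256.8, 228.0 and 214.7 FPKM in control (log2 change 1.40, SE 0.14, adjusted p = 7.98e-07). These 2 genes rose far more than the rest of the list. NQO1, the quinone reductase often used as the marker of NRF2, had 59.3, 65.1 and 67.2 FPKM after charcoal alone and 40.3, 40.1 and 36.8 FPKM in control (log2 change 0.69, SE 0.07, adjusted p = 2.29e-06). EPHX1, an epoxide hydrolase, rose by 0.52, and the NADPH supplier ME1 by 0.43 on the log2 scale.

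Members that serve glutathione and thioredoxin were called in few cases. Of 4 tested glutathione genes 1 rose and 1 fell, and of 5 thioredoxin genes 1 rose; the members named here were chosen after their values were seen. GCLC, the catalytic subunit of glutathione synthesis, rose to 7.50, 7.78 and 8.53 FPKM in charcoal wells, against 6.01, 6.35 and 6.54 FPKM in control wells (log2 change 0.29, adjusted p = 0.0027). PRDX1, a peroxiredoxin that uses thioredoxin, rose to 252.9, 253.5 and 271.2 FPKM, against 223.0, 216.8 and 223.6 FPKM in control (log2 change 0.23, adjusted p = 0.00515). GCLM, the modifier subunit of glutathione synthesis, had 12.3, 11.8 and 13.96 FPKM in charcoal wells and 10.98, 10.3 and 12.3 FPKM in control wells (adjusted p = 0.283). TXNRD1, thioredoxin reductase, had 145.0, 141.3 and 143.7 FPKM after charcoal alone and 142.6, 145.7 and 115.9 FPKM in control (adjusted p = 0.427). SRXN1, sulfiredoxin, had a log2 change of 0.04 (adjusted p = 0.729) and OSGIN1 one of 0.10 (adjusted p = 0.823). The antioxidant response element was searched by its core TGACNNNGC (GCNNNGTCA on the other strand). It was present in 1 of the 9 risen members with a promoter in the table, ME1, in 4 of 12 members not called and in 10.9% of all promoters. AKR1C1 and AKR1C2, relatives of AKR1C3 with which some short reads can be shared, stayed below 0.4 FPKM in each of the 6 wells. The aldo-keto reductase gene AKR1B10 was listed at 0 in all 6.

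Genes of retinoic acid handling and response rose in 4 of 11 tested cases, fell in 1 and did not pass in 6, with a median log2 change of 0.33. RARRES1, named for its induction by retinoids, had 6.10, 6.51 and 6.13 FPKM in charcoal wells and 2.64, 2.96 and 2.76 FPKM in control wells (log2 change 0.94, SE 0.16, adjusted p = 0.000503). DHRS3, a reductase that returns retinal to retinol, had 14.1, 14.9 and 13.2 FPKM after charcoal alone and 9.15, 10.2 and 7.58 FPKM in control (log2 change 0.60, SE 0.15, adjusted p = 0.00977). The call of DHRS3 ended without control well 3 (adjusted p = 0.0681) and with a pseudocount of 0.1 (adjusted p = 0.0928). CYP26B1, which degrades retinoic acid, rose by 0.54 and the receptor gene RARG by 0.40. TGM2, a transglutaminase known as a retinoid target, went the other way, with 4.84, 4.46 and 4.23 FPKM in charcoal wells and 7, 7.55 and 10.2 FPKM in control wells (log2 change -0.73, SE 0.15, adjusted p = 0.00214).

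Fatty acid synthesis genes rose in 4 of 10 tested cases and none passed in the other direction, with a median log2 change of 0.18. ME1 is among these 4 and was also counted in the NRF2 list. FASN, the fatty acid synthase, had 91.9, 99.8 and 95.3 FPKM in charcoal wells and 67.4, 68.3 and 60.8 FPKM in control wells (log2 change 0.54, SE 0.08, adjusted p = 0.000155). FADS2, a desaturase, rose by 0.42 (adjusted p = 0.00852, and 0.0576 without control well 3), and ELOVL5, an elongase, by 0.16. ACACA, which makes malonyl-CoA for the pathway and was named after its values were seen, did not pass: the files list it at 4.35, 4.21 and 0.0489 FPKM in charcoal wells, and at 0, 0.0592 and 0.0584 FPKM in control wells. Only 2 of 18 cholesterol synthesis and uptake genes rose, HSD17B7 by 0.38 among them, and the call of HSD17B7 ended without charcoal well 2 or 3 or control well 2 or 3. None fell at an adjusted p below 0.05.

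Matrix and mesenchymal genes changed in both directions, with 7 rises, 8 falls and 20 members that did not pass among 35. S100A4, a calcium-binding protein of motile cells, had 12.2, 14.3 and 14.2 FPKM in charcoal wells and 6.36, 6.31 and 5.78 FPKM in control wells (log2 change 1.03, SE 0.14, adjusted p = 5.28e-05). TGFBI, a matrix protein induced by TGF-beta, had 339.6, 339.8 and 324.5 FPKM after charcoal alone and 522.9, 527.8 and 558.2 FPKM in control (log2 change -0.68, SE 0.05, adjusted p = 6.21e-08). Vimentin, the intermediate filament VIM, fell by 0.43, whereas LOXL4 rose by 0.56 and TIMP3 by 0.47. FN1, fibronectin, averaged 383.6 FPKM after charcoal alone and 373.3 FPKM in control and did not pass (adjusted p = 0.867). The fibroblast markers COL1A2, PDGFRB and THY1 rose by 0.73, 0.56 and 0.16; the call of PDGFRB ended without control well 3 (adjusted p = 0.0635), and that of THY1 without charcoal well 2, control well 1 or control well 2 (adjusted p = 0.0697, 0.0596 and 0.0614).

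The summed level of the 11 fibroblast markers was 358.3 to 367.1 FPKM in charcoal wells and 303.5 to 324.2 FPKM in control wells, with DCN, FAP, DPT and POSTN listed at 0 in all 6. Of 14 immune markers 2 could be tested. CD14, a receptor for bacterial lipopolysaccharide, rose to 18.3, 22.9 and 19.6 FPKM in charcoal wells, against 12.5, 11.9 and 11.1 FPKM in control wells (log2 change 0.72, SE 0.12, adjusted p = 0.000511). CD68, a macrophage marker named after its values were seen, had 6.91, 10.2 and 10.1 FPKM after charcoal alone and 12.5, 10.9 and 13.6 FPKM in control and did not pass (log2 change -0.42, adjusted p = 0.109). The immune list summed to 25.4 to 33.2 FPKM in charcoal wells and 22.9 to 25.1 FPKM in control wells, and 7 of its members, CD3E, MS4A1 and ITGAM among them, were at 0. The 9 red blood cell genes summed to at most 0.177 FPKM in charcoal wells and 0.498 FPKM in control wells, and none of the ciliated or secretory markers reached a mean of 1 FPKM. The cells were of the BEAS-2B line, so the marker names above label genes and not cells that were seen. A part of other cells in the matrix results was not tested, and in bulk RNA fewer cells of a type and less RNA per cell cannot be told apart.

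Contractile genes were called as lower where they passed. Of 10 tested genes of the YAP and SRF list 3 fell and none passed as higher. TAGLN, an actin-binding protein of contractile cells, had 423.3, 400.9 and 413.7 FPKM in charcoal wells and 794.0, 802.0 and 711.2 FPKM in control wells (log2 change -0.90, SE 0.09, adjusted p = 7.98e-07). MYL9, a myosin light chain, fell by 0.36 and the receptor kinase AXL by 0.17. These smaller calls were fragile: that of MYL9 ended without control well 1 or 2 (adjusted p = 0.0556 and 0.0622), and that of AXL without charcoal well 2 or 3 or control well 3. Among 21 keratin and junction genes 3 rose and 3 fell, and KRT8 rose by 0.31 on the log2 scale.

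The remaining large rises fall outside these lists. SLC38A4, a neutral amino acid transporter, had 5.10, 5.25 and 6.34 FPKM in charcoal wells and 1.67, 1.73 and 1.38 FPKM in control wells (log2 change 1.34, SE 0.12, adjusted p = 2.64e-07). TNFSF10, the death ligand TRAIL, had 2.67, 3.26 and 3.05 FPKM after charcoal alone and 0.803, 0.619 and 0.721 FPKM in control (log2 change 1.22, SE 0.13, adjusted p = 3.16e-06). Both were clear of overlap in every well. AQP5, a water channel of airway glands, had 2.26, 3.20 and 3.30 FPKM after charcoal alone and 0.758, 0.968 and 1.03 FPKM in control (log2 change 1.02, SE 0.11, adjusted p = 3.81e-06). The organic anion transporter gene SLCO4A1 rose by 1.12, the uncharacterised LOC101927318 by 1.07, FBXO2, whose product marks glycoproteins for degradation, by 0.98, FAM167B by 0.96 and the corepressor gene HR by 0.93.

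Among the other large falls, ALDH1L2, a mitochondrial folate enzyme, had 0.310, 0.235 and 0.232 FPKM in charcoal wells and 1.298, 1.21 and 1.27 FPKM in control wells (log2 change -0.84, SE 0.10, adjusted p = 8.38e-06). STMN3, a microtubule regulator, fell by 0.86, the prenyltransferase subunit gene PTAR1 by 0.86 and SMS, spermine synthase, by 0.86. A few of the falls rest on uneven wells. C21orf33 had 7.01, 2.52 and 18.3 FPKM in charcoal wells and 19.2, 19.1 and 19.5 FPKM in control wells (adjusted p = 0.0498), and its call ended without any 1 of these wells except charcoal well 3. The value without charcoal well 2 was -0.70 (adjusted p = 0.33). STOM, stomatin, had 18.8, 50.0 and 15.7 FPKM after charcoal alone and 61.2, 62.2 and 54.7 FPKM in control (log2 change -1.23, adjusted p = 0.0135). Its call ended without charcoal well 1 or 3 (adjusted p = 0.0706 and 0.102) and with only the 2 groups in the fit (adjusted p = 0.11). The transcript filed under SNORA27 is not read here as a small RNA. It was at 0.141, 0.150 and 0 FPKM in charcoal wells and 1.81, 1.69 and 1.27 FPKM in control wells.

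Several stress programmes showed no call at 24 h. None of 22 heat shock genes, 21 immediate early genes, 20 p53 targets, 27 S phase genes, 26 mitotic genes or 4 tested AHR targets passed in limma's test, where 1962 of all genes had an unadjusted p under 0.05, and at most 1 gene of each list passed under any alternative. CYP1B1, an AHR target whose enzyme oxidises smoke constituents, had 7.54, 7.73 and 8.23 FPKM in charcoal wells and 6.09, 6.04 and 4.62 FPKM in control wells (adjusted p = 0.209, and 0.0435 with only the 2 groups in the fit). Of 8 AHR targets with values only 4 were tested. CYP1A1, named after its values were seen, was too low to be tested. Its level was 0.537, 0.537 and 0.573 FPKM in charcoal wells and 0.338, 0.125 and 0.260 FPKM in control wells, without overlap. The inducible chaperone gene HSPA1A, nearly identical to HSPA1B, had 14.1, 14.7 and 14.6 FPKM after charcoal alone and 13.7, 13.6 and 15.3 FPKM in control (adjusted p = 0.975). MT2A, a metallothionein that binds zinc and heavy metals, was the only called gene among 5 of its list and fell to 297.7, 305.3 and 280.6 FPKM in charcoal wells, against 400.8, 404.9 and 483.7 FPKM in control wells (log2 change -0.54, SE 0.10, adjusted p = 0.00156). Of 17 cytokine and NF-kB genes, CCL2, a monocyte attractant, rose by 0.65 and PTGES, which makes prostaglandin E, by 0.71. IL6 and CXCL8 did not pass (adjusted p = 0.686 and 0.353), but CXCL8 did as lower with only the 2 groups in the fit (adjusted p = 0.0319). CSF2, a growth factor of myeloid cells, was lower by 0.53. Its call did not hold with a replicate block or with no filter (adjusted p = 0.0536 and 0.061). It also ended without charcoal well 1 or 3 or any 1 control well (adjusted p up to 0.144).

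The next question was whether the 24 h effect differed from that at 2 h. The difference between the 2 effects passed in 1979 of 8531 genes (23.2%), 1382 of them above 0 and 597 below, a split that became 716 and 889 with median-of-ratios scaling. For ASNS and AKR1C3 the 2 h wells of both groups overlapped. ASNS had 5.62, 7.46 and 6.74 FPKM at 2 h after charcoal alone and 6.32, 7.95 and 6.67 FPKM in 2 h controls, so its effect differed by -1.91 between the times (adjusted p = 0.000233). AKR1C3 had 3.595, 2.96 and 3.55 FPKM at 2 h after charcoal alone and 3.46, 3.76 and 4.79 FPKM in 2 h controls (difference between effects 1.76, adjusted p = 5.66e-07). Among the largest differences in this direction were also GRB7, an adaptor of receptor kinases, at 1.86, PRR15 at 1.63, TXNIP, an inhibitor of thioredoxin, at 1.59 and SLC38A4 at 1.52.

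GRB7 and PRR15 changed in opposite directions at the 2 times. GRB7 had 0.533, 0.257 and 0.597 FPKM at 2 h after charcoal alone and 2.48, 2.54 and 2.38 FPKM in 2 h controls, and at 24 h it had 4.52, 5.26 and 4.81 FPKM after charcoal alone and 3.04, 2.96 and 2.58 FPKM in control. The 24 h rise of GRB7 lost its call without charcoal well 2 or 3 or control well 2 or 3 (adjusted p = 0.0868, 0.0613, 0.0523 and 0.0884). TXNIP stood at 3.29, 3.46 and 5.95 FPKM at 2 h after charcoal alone and 20.4, 21.6 and 18.7 FPKM in 2 h controls. By 24 h it had 41.6, 41.4 and 36.2 FPKM after charcoal alone and 54.8, 55.6 and 55.3 FPKM in control, which did not pass (log2 change -0.47, adjusted p = 0.0571). TXNIP did pass as lower at 24 h with only the 2 groups in the fit (adjusted p = 0.00929) and with median-of-ratios scaling (adjusted p = 0.0428). The largest differences in the other direction were in ANKRD1 (-3.92), ATF3 (-3.23), IL11 (-3.20), MYADM (-3.08) and SPRY4 (-2.75). ANKRD1, a stretch-induced target of YAP, had 47.2, 47.9 and 68.2 FPKM at 2 h after charcoal alone and 4.91, 5.72 and 5.96 FPKM in 2 h controls, but 1.41, 1.86 and 2.03 FPKM at 24 h after charcoal alone and 3.85, 5.47 and 2.94 FPKM in 24 h controls. ANKRD1 passed as lower at 24 h with only the 2 groups in the fit (adjusted p = 0.0406 in limma).

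**Figure D3:**
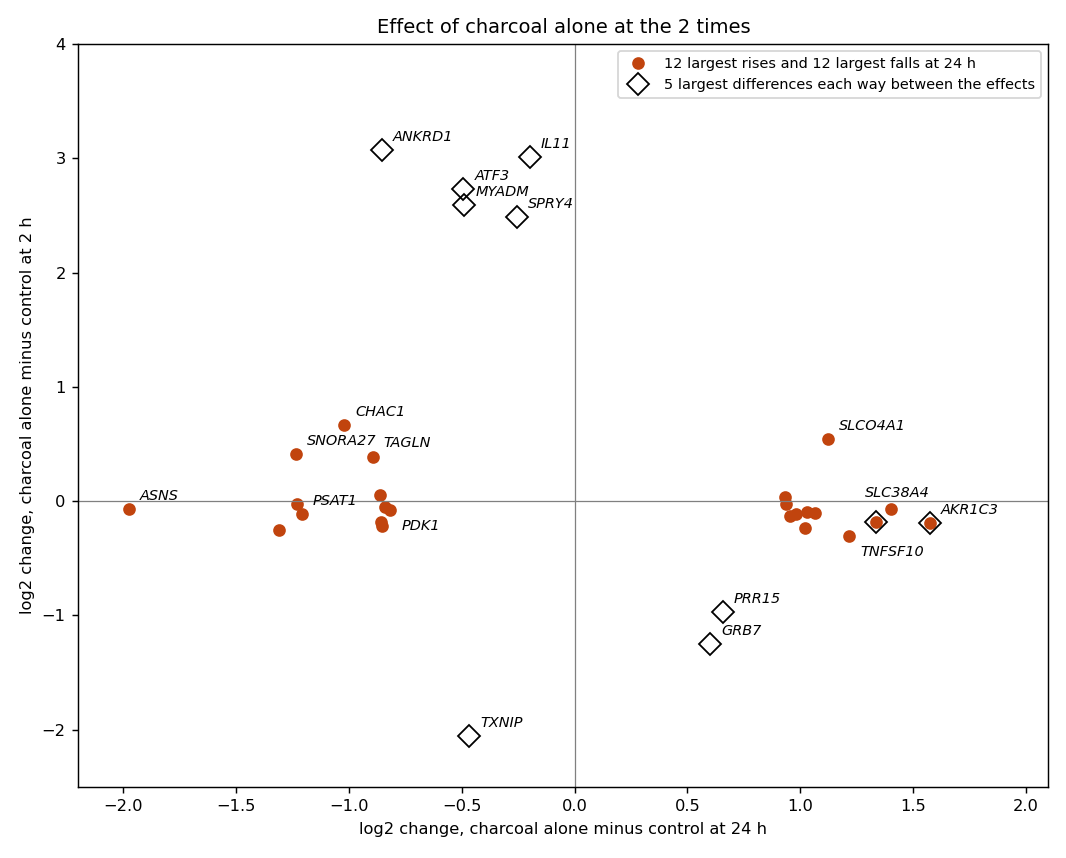
The log2 change of charcoal alone minus control at 24 h (horizontal) and at 2 h (vertical) for the 24 genes with the largest changes at 24 h (filled circles) and the 10 with the largest differences between the times (open diamonds). Most filled circles lie near 0 on the vertical axis, CHAC1 lies at 0.67 on it, and ANKRD1, IL11, ATF3, MYADM and SPRY4 lie above 2.4 on it.

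Levels in the control wells also moved between the times. ASNS averaged 6.98 ± 0.86 FPKM in 2 h controls and 17.7 ± 1.6 FPKM in 24 h controls, while charcoal wells averaged 6.61 FPKM at 2 h and 3.75 FPKM at 24 h (SD, n = 3). BNIP3 was at 34.9, 36.4 and 32.6 FPKM in 2 h controls, and its 24 h charcoal wells lay between these and the 24 h controls. For AKR1C3 and NQO1 the controls were lower at 24 h than at 2 h, and NQO1 stood at 63.8, 61.8 and 64.2 FPKM at 2 h after charcoal alone, close to its 24 h charcoal wells. Each difference against the 24 h control thus includes what control wells did in that time, and changes within the charcoal wells over time were not tested.

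**Figure D4:**
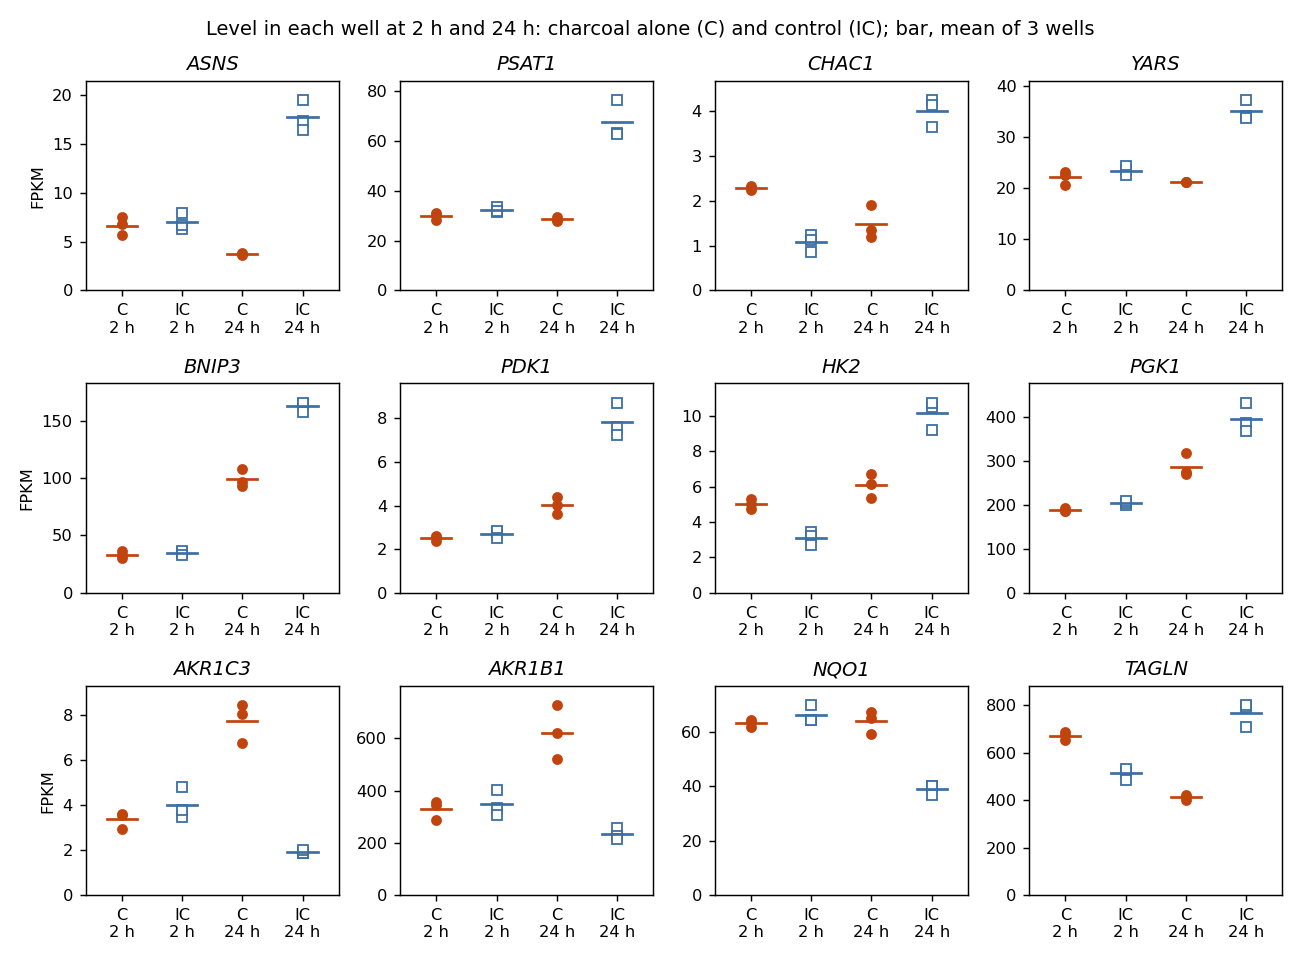
FPKM of 12 genes in each well at 2 h and 24 h after charcoal alone (C, filled circles) and in control (IC, open squares), with bars for means of 3 wells. ASNS, PSAT1 and YARS were higher in 24 h than in 2 h controls and not in charcoal wells, and BNIP3 and PGK1 of 24 h charcoal wells lay between the 2 h wells and the 24 h controls.

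Charcoal alone was then set against shisha smoked on charcoal, to see which readings belong to charcoal without shisha. At 24 h, 2687 genes (31.5%) differed between charcoal alone and herbal shisha on charcoal and 3760 (44.1%) between charcoal alone and tobacco shisha on charcoal. Leaving out the third herbal shisha well lowered the first count to 1770. Among the named genes DHRS3 differed most from both, with 14.1, 14.9 and 13.2 FPKM after charcoal alone, against 2.11, 1.01 and 0.697 FPKM after herbal shisha on charcoal and 0.412, 0.919 and 0.640 FPKM after tobacco shisha on charcoal (log2 differences 2.78 and 3.20, adjusted p = 1.65e-11 and 7.94e-13). RARRES1 also differed from both, with log2 differences of 1.96 and 2.27 (adjusted p = 2.98e-08 and 1.44e-09). Against the same 24 h control, DHRS3 and RARRES1 were higher after charcoal alone (0.60 and 0.94), and lower after herbal shisha (-2.18 and -1.02) and after tobacco shisha on charcoal (-2.59 and -1.34). Of the 11 retinoid genes 7 were higher after charcoal alone than after herbal shisha on charcoal and 7 than after tobacco shisha on charcoal, and none passed as lower in either. Over all tested genes 15.3% were higher after charcoal alone than after herbal shisha on charcoal and 20.6% than after tobacco shisha on charcoal.

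SULF1, a sulfatase of heparan sulfate at the cell surface, had 7.21, 7.38 and 7.83 FPKM after charcoal alone and 1.69, 1.39 and 1.12 FPKM after herbal shisha on charcoal (log2 difference 1.83, adjusted p = 2.09e-08). MARCO, a scavenger receptor for particles, had 4.02, 4.40 and 2.56 FPKM after charcoal alone and was listed at 1.04, 0.265 and 0 FPKM after herbal shisha on charcoal. Against tobacco shisha on charcoal, the complement gene C3 had 30.6, 35.4 and 32.1 FPKM after charcoal alone and 5.18, 8.12 and 8.88 FPKM after the shisha (log2 difference 2.03, adjusted p = 2.10e-08). PDZK1IP1 and SAA4 were also higher after charcoal alone, by 2.19 and 2.07. MARCO, C3, PDZK1IP1 and SAA4 did not pass against control after charcoal alone (adjusted p = 0.384, 0.498, 0.512 and 0.0946).

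In the other direction ASNS had 3.67, 3.69 and 3.87 FPKM after charcoal alone and 7.85, 21.3 and 25.8 FPKM after herbal shisha on charcoal (log2 difference -1.88, SE 0.24, adjusted p = 4.98e-06). PSAT1 had 29.6, 27.8 and 28.4 FPKM after charcoal alone and 51.1, 84.2 and 99.6 FPKM after herbal shisha on charcoal (log2 difference -1.37, adjusted p = 2.44e-07). The first herbal shisha well was the closest to charcoal alone in both genes, and without it the differences were -2.37 and -1.65. Of 27 tested genes of the ATF4 list, 11 were lower and 5 higher after charcoal alone than after herbal shisha on charcoal. Against tobacco shisha on charcoal, 8 were lower and 8 higher after charcoal alone. Against control, 12 of the 27 fell and 3 rose after tobacco shisha on charcoal, and 6 fell and 1 rose after herbal shisha. Over all tested genes 18.6% fell and 25.9% rose after tobacco shisha on charcoal, and 10.4% fell and 16.5% rose after herbal shisha. All 15 synthetases that differed between charcoal alone and herbal shisha on charcoal, of 17 tested, were lower after charcoal alone, and so were all 13 that differed from tobacco shisha on charcoal. Over all tested genes 16.2% were lower and 15.3% higher after charcoal alone than after herbal shisha on charcoal. Against tobacco shisha on charcoal 23.5% were lower and 20.6% higher after charcoal alone. GAL, the galanin neuropeptide, had 3.48, 2.71 and 2.81 FPKM after charcoal alone, 6.90, 9.18 and 13.0 FPKM after herbal shisha on charcoal and 14.3, 8.76 and 9.26 FPKM after tobacco shisha on charcoal. IL11, a cytokine of the IL-6 family, had 2.29, 2.62 and 2.52 FPKM after charcoal alone and 17.3, 6.53 and 6.43 FPKM after tobacco shisha on charcoal (log2 difference -1.54, adjusted p = 0.000126). The matrix metalloproteinase gene MMP3 was lower by 1.53 in the same comparison.

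Another 4 genes reached the largest differences with uneven wells. CBX5, a heterochromatin protein, had 18.1, 4.30 and 3.49 FPKM after charcoal alone and 25.9, 23.4 and 21.7 FPKM after herbal shisha on charcoal, and its call ended without charcoal well 2 or 3 (adjusted p = 0.0698 and 0.083). MIR6087, whose transcript is not read as a mature miRNA, had 17.5, 10.4 and 1.34 FPKM after charcoal alone and 0.233, 0.232 and 0.405 FPKM after herbal shisha on charcoal, with no call without charcoal well 1 (adjusted p = 0.0704). The pseudogene PA2G4P4 and PLEKHB2 were lower against tobacco shisha on charcoal by 1.78 and 1.32; PA2G4P4 lost its call without charcoal well 1 or tobacco shisha well 1 (adjusted p = 0.112 and 0.0544), and PLEKHB2 without tobacco shisha well 2 or 3 (adjusted p = 0.071 and 0.0648). The transcript filed under SNORA27 had even wells, with 0.141, 0.150 and 0 FPKM after charcoal alone and 1.299, 1.99 and 1.53 FPKM after herbal shisha on charcoal.

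Hypoxia-linked and NRF2-linked genes were also called against control after shisha. Of 29 hypoxia-linked genes 24 fell after herbal shisha on charcoal, 26 after tobacco shisha on charcoal and 12 after charcoal alone, and of 30 NRF2-linked genes 15, 19 and 11 rose in the same order of exposures. Over all tested genes 10.4% fell and 16.5% rose after herbal shisha on charcoal, and 18.6% fell and 25.9% rose after tobacco shisha on charcoal. Of 29 hypoxia-linked genes 17 were higher after charcoal alone than after herbal shisha on charcoal and none was lower at an adjusted p below 0.05, and against tobacco shisha on charcoal 22 were higher and 1 lower, beside 15.3% and 20.6% of all tested genes that were higher in these comparisons. That 1 lower call ended without any 1 of the 6 wells compared. BNIP3, at 99.2 ± 7.9 FPKM after charcoal alone, had 77.9, 60.9 and 55.1 FPKM after herbal shisha on charcoal and 39.5, 41.3 and 40.5 FPKM after tobacco shisha on charcoal. NQO1 was lower after charcoal alone than after either shisha, by 0.79 and 1.12 on the log2 scale (adjusted p = 1.26e-07 and 6.42e-10). AKR1C3 was higher after charcoal alone than after herbal shisha (1.02, adjusted p = 7.58e-06) and tobacco shisha on charcoal (0.86, adjusted p = 2.65e-05), and so was AKR1B1 (1.13 and 0.86, adjusted p = 2.71e-06 and 2.74e-05). SLC38A4 and TNFSF10 were higher after charcoal alone than after herbal shisha by 1.43 and 1.42 and than after tobacco shisha on charcoal by 1.57 and 1.59. The 4 exposures share their 24 h control wells, so changes against control are given side by side and not correlated.

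**Figure D5:**
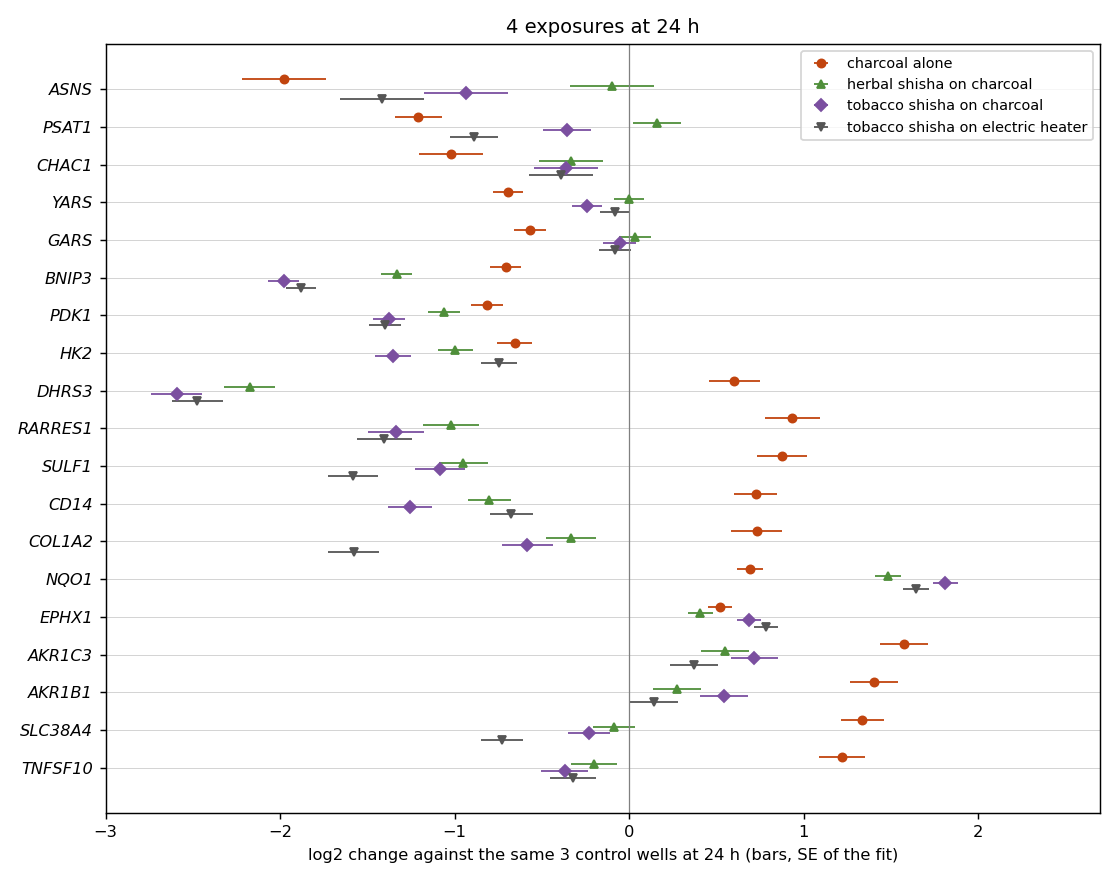
The log2 change against the same 3 control wells at 24 h for 19 genes after charcoal alone (circles), herbal shisha on charcoal (upward triangles), tobacco shisha on charcoal (diamonds) and tobacco shisha on an electric heater (downward triangles), with bars for the SE of the fit. DHRS3, RARRES1, SULF1, CD14 and COL1A2 lie right of 0 after charcoal alone and left of 0 after the 3 shisha smokes, while BNIP3 and PDK1 lie left of 0 in all 4.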

How the data were processed

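RNA of BEAS-2B wells (1 ug) was sequenced as 50 bp single-end reads, per the labels' protocols. The authors deposited FPKM values per transcript for each of 30 libraries; HISAT2 2.1.0, StringTie 1.3.4d and hg38 are named in the submitters' processing notes. Each file holds 29190 transcripts, and for each of 22538 gene names the transcript with the highest mean was used. Depth is unknown, since FPKM steps did not give whole reads.

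The test covered 8531 genes that reached 1 FPKM in 3 or more libraries, as log2(FPKM + 1) with limma 3.58.1 in R 4.3.3, with a mean-variance trend, all 10 groups in 1 fit, two-sided tests and Benjamini-Hochberg adjustment over all 8531. The code was tested on simulated data. Fold changes on this scale understate those of low genes. An exact 0 can be a failed estimate: 171 of 8023 transcripts with a median of at least 1 FPKM have one. Alternatives were a replicate block, only the compared groups, no filter, a pseudocount of 0.1, median-of-ratios scaling, summed transcripts, and leaving out each well. A further matrix was not used.

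Named genes are the 12 largest rises and falls without overlap at a mean of 1 FPKM, up to 6 called members and marked key members per list, and the 5 largest differences each way in the other comparisons. Members and lists were chosen with earlier results of these data known. Lists share some members, such as AKR1B1, SLC38A2, ME1, SLC7A11 and LOX, so their counts are not independent. Promoters are RefSeq sequences of GRCh38.p14. Results for a few items are not reported here.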

Additional observations from a re-analysis of the deposited data

Results flagged for a closer look

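The effect of charcoal alone at 24 h differed from that at 2 h in the 27 genes listed here. The test was limma's on the difference itself, with Benjamini-Hochberg adjustment over 8531 genes, of which 23.2% passed. Only genes with the largest changes at 24 h or the largest differences between the times were screened. The latter were picked by this same difference and the former by 1 of its terms, so their count is a description. Other named genes were not screened here, and DHRS3 and SULF1 among them also passed. Values are the log2 effect at 24 h minus that at 2 h. The effect was more positive at 24 h in AKR1C3 (1.76), SLC38A4 (1.52), TNFSF10 (1.52), AKR1B1 (1.47), AQP5 (1.26), LOC101927318 (1.17), S100A4 (1.12), FBXO2 (1.09), FAM167B (1.09), RARRES1 (0.96) and HR (0.89). It was more negative at 24 h in ASNS (-1.91), CHAC1 (-1.69), SNORA27 (-1.65), TAGLN (-1.28), PSAT1 (-1.10), STMN3 (-0.92), ALDH1L2 (-0.80) and PDK1 (-0.74). For RARRES1 the difference lost its call with a pseudocount of 0.1 (adjusted p = 0.0845).

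In 5 genes charcoal wells lay above control at 2 h and the effect at 24 h was lower, namely ANKRD1 (-3.92), ATF3 (-3.23), IL11 (-3.20), MYADM (-3.08) and SPRY4 (-2.75). Their effects at 2 h ran from 2.49 in SPRY4 to 3.07 in ANKRD1. GRB7 (1.86) and PRR15 (1.63) were lower than control at 2 h and higher at 24 h, while TXNIP (1.59) was at -2.05 against control at 2 h and -0.47 at 24 h, where it did not pass (adjusted p = 0.0571) but did with only the 2 groups in the fit (adjusted p = 0.00929).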

How the results depend on the processing

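Against control at 24 h, the count of 842 genes ran from 511 to 602 with 1 well left out, that of rises from 303 to 368 and that of falls from 198 to 234. Of the 842 genes 493 to 574 were still called in the same direction, and leaving out a well also leaves fewer samples. With only the 2 groups in the fit 882 genes were called, and 612 of the 842 were kept in the same direction. With no filter 688 of the 842 were kept. The count of 2-fold changes was 45 with a pseudocount of 0.1 and 10 to 18 with a well left out. For the difference between the times, 2079 genes were higher when only the compared groups entered the fit and 716 with median-of-ratios scaling, and the cause was not tested. Against herbal shisha on charcoal, leaving out 1 well gave 1770 to 2859 genes, with 833 to 1510 higher, the lowest without herbal shisha well 3. The replicate block gave 830, 1978, 2665 and 3769 genes for the 4 comparisons, against 842, 1979, 2687 and 3760 without it. Same-numbered charcoal and control wells at 24 h deviated together at -0.065, 0.058 and 0.095, against at most 0.038, 0.096 and -0.028 for other numbers. At 2 h they did so at 0.054, 0.028 and 0.039, against -0.026, -0.01 and 0.004. Charcoal and tobacco shisha wells at 24 h gave 0.104, 0.13 and 0.06, against -0.049, -0.012 and -0.009. Charcoal and herbal shisha wells gave 0.058, 0.022 and -0.01, against -0.031, 0.044 and 0.009. Whether same-numbered wells share more than a number is not known. The block ended the call of CSF2 (adjusted p = 0.0536) and gave TXNIP one (adjusted p = 0.0418). No called gene among those named by the rule changed direction; MIR6087 against control, with no call at 0.11, ran from -0.59 to 0.98. Depth is unknown, so no limit from read counts can be given.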

Other observations

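Genes of sodium and osmolyte transport were grouped after their values were seen, so their count is a description. All 12 tested members, of 15 listed, were called higher after charcoal alone at 24 h, beside 6.05% of all tested genes. Their median log2 change was 0.63. AKR1B1 and SLC38A2 are among them and were also counted above, in the NRF2 and ATF4 lists. The call of NFAT5, a transcription factor of the osmotic response, ended with no filter, with median-of-ratios scaling (adjusted p = 0.0569 and 0.0505 in limma) and without any 1 well except charcoal well 2 (adjusted p up to 0.121). ATP1B1, a subunit of the sodium pump, had 81.5, 89.2 and 100.3 FPKM in charcoal wells and 53.9, 49.6 and 47.0 FPKM in control wells. SLC6A6, the taurine transporter, had 19.2, 19.4 and 19.9 FPKM after charcoal alone and 10.7, 11.3 and 10.2 FPKM in control (log2 change 0.80, SE 0.07, adjusted p = 2.64e-07 in limma). AQP3, a channel for water and glycerol, was higher by 0.81 and SCNN1A, a subunit of the epithelial sodium channel, by 0.56.

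A list of serine, glycine and one-carbon metabolism was also made after the values were seen, so its count is a description. Of 12 tested genes 9 were called lower, beside 3.82% of all tested genes, and none was called higher. All 5 members that the list places under mitochondrial folate fell. Among them MTHFD1L fell to 8.48, 8.25 and 8.21 FPKM in charcoal wells, against 12.2, 12.5 and 12.4 FPKM in control wells. The call of SFXN2, a mitochondrial carrier in that group, ended without charcoal well 2 or control well 3 (adjusted p = 0.059 and 0.0605 in limma). The cytosolic enzymes SHMT1 and MTHFD1 did not pass (adjusted p = 0.142 and 0.372 in limma). SHMT1 did pass as higher with only the 2 groups in the fit (log2 change 0.196, adjusted p = 0.0394). ODC1, which starts polyamine synthesis, had 24.5, 24.2 and 25.2 FPKM after charcoal alone and 36.3, 34.7 and 37.8 FPKM in control.

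Histone cluster genes, near-identical copies whose reads can be shared, were also grouped after their values were seen, so their count is a description. Of 7 tested members 6 were called higher, beside 6.05% of all tested genes, and 4 to 6 were across the alternatives. HIST2H2BE lost its call with no filter, with median-of-ratios scaling and without any 1 well (adjusted p up to 0.189 in limma), and HIST1H2AC and HIST1H2BE with only the 2 groups in the fit (adjusted p = 0.0514 and 0.0595). HIST1H2BD had 7.28, 7.42 and 7.31 FPKM in charcoal wells and 3.32, 2.83 and 4.46 FPKM in control wells. HIF1A, the oxygen-regulated subunit of HIF-1, had 154.7, 155.3 and 175.9 FPKM after charcoal alone and 129.9, 126.6 and 117.9 FPKM in control (log2 change 0.37, SE 0.07, adjusted p = 0.000641 in limma), while the hypoxia-linked genes described above were lower. TJP1, a tight junction scaffold, was listed at 0, 0 and 6.89 FPKM in charcoal wells and at 7.19, 6.41 and 6.74 FPKM in control wells, so 2 wells of charcoal alone stood apart. HIF1A and TJP1 were picked after their values were seen.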
